A study of Rattus norvegicus with 9 samples.

Results

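The Agpat and Lpcat acyltransferases were followed in lumbar spinal cord of rats with nerve injury, with and without a paeoniflorin and liquiritin treatment. The members were the rows of the TPM table whose gene name is Agpat1, Agpat2, Agpat3, Agpat4, Agpat5, Lpcat1, Lpcat2, Lpcat3 or Lpcat4, which gave 9 genes of 34890 loci listed, 32850 of them with a gene name. RNA came from the ipsilateral side of the L3-L6 cord of wild-type male Sprague Dawley rats, with 3 rats in each of 3 groups. The sham-operated group (JA) and the spared nerve injury group (SNI), in which branches of the sciatic nerve were cut, were given normal saline by mouth. The PLM group had the same nerve injury and was given paeoniflorin at 20.65 mg/ml together with liquiritin, over 21 days. The liquiritin dose is labelled 3.98, 3.99 and 3.100 mg/ml for PLM replicates 1, 2 and 3, while the methods give 3.98 mg/ml for the whole group. All 3 groups were operated and dosed by mouth, and sham-operated rats given the compounds were not analysed here. The age of the rats is not given in the sources used here.

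Both families attach a fatty acid to a lysophospholipid, the form of a phospholipid that has lost one of its fatty acids. The Agpat enzymes (1-acylglycerol-3-phosphate acyltransferases) turn lysophosphatidic acid into phosphatidic acid, the common precursor of triacylglycerol and of the membrane phospholipids. The Lpcat enzymes (lysophosphatidylcholine acyltransferases) rebuild phosphatidylcholine and its relatives after phospholipase A has removed a fatty acid, a cycle that decides which fatty acids, arachidonic acid among them, are held in the membranes of nervous tissue.

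Levels are given in TPM, the abundance of a transcript among all transcripts of a sample, which corrects for transcript length and so allows genes to be compared with each other. The members spanned a wide range in the cord. Agpat4 was the most abundant, followed by Agpat1, Agpat3, Lpcat4, Lpcat3, Agpat5, Lpcat1, Lpcat2 and Agpat2. The mean over all 9 samples was 177.0 TPM for Agpat4, 74.2 TPM for Agpat1 and 39.78 TPM for Agpat3. Each of these was above the next without overlap of the 9 samples, except that the ranges of Agpat3 and Lpcat4 overlapped while Agpat3 was the higher of the pair in 9 of 9 samples. Lpcat4 (26.0 TPM), Lpcat3 (25.92 TPM) and Agpat5 (22.47 TPM) formed a middle group whose order was not the same in every sample, since Lpcat4 was above Lpcat3 in 5 of 9 samples and Lpcat3 above Agpat5 in 7 of 9. Lpcat1 (5.871 TPM) and Lpcat2 (4.806 TPM) were low, and Lpcat1 was the higher in 8 of 9 samples. Agpat2 averaged 0.8478 TPM. The 5 Agpat genes together were between 4.88 and 5.24 times as abundant as the 4 Lpcat genes in the group means, with 5.24 ± 0.246 in JA, 4.97 ± 0.0722 in SNI and 4.88 ± 0.223 in PLM (mean ± SD, n = 3).

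**Figure D1:**
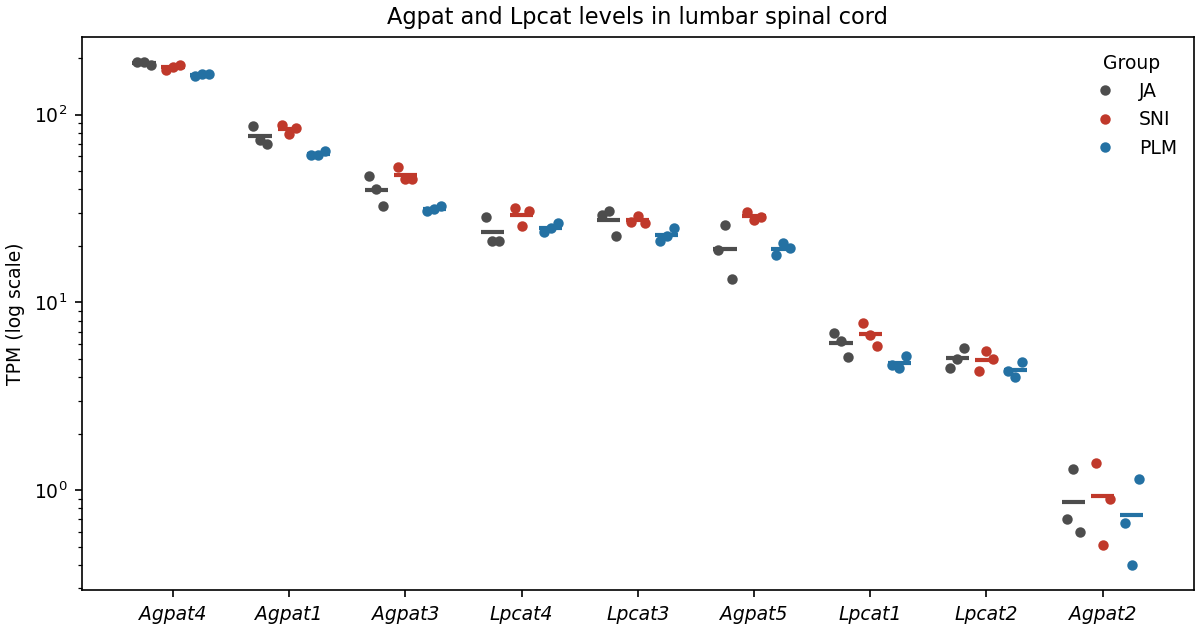
TPM (log axis) of the 9 members in each of the 9 samples, with a point for each rat and a bar for the mean of each group of 3. Agpat4 lies above all other members in every sample. The 3 PLM points of Agpat1, Agpat3, Agpat4, Agpat5, Lpcat1 and Lpcat3 lie below the 3 SNI points, as was so for 41.9% of all genes tested.

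The sequence just before the start of a gene is where transcription factors bind, and 8 of the 9 members had such a sequence in the RefSeq promoter table (assembly GRCr8). The 250 bases before the start are printed for Agpat4, the most abundant member, and for Agpat1 and Agpat3, which were lower in PLM than in SNI as deposited. They lie at chr1:51180972-51181221 on the minus strand for Agpat4, chr20:4147869-4148118 on the minus strand for Agpat1 and chr20:10383931-10384180 on the plus strand for Agpat3. Each of the 3 windows lies inside the annotated RefSeq span of its gene, so other transcripts of these genes start further upstream. Capitals mark the GC box GGGCGG, searched on both strands as GGGCGG or CCGCCC.
Agpat4: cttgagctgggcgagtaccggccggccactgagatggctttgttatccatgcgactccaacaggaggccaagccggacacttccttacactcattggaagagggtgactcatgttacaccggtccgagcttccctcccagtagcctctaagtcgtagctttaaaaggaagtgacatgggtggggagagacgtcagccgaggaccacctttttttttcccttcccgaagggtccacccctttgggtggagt
Agpat1: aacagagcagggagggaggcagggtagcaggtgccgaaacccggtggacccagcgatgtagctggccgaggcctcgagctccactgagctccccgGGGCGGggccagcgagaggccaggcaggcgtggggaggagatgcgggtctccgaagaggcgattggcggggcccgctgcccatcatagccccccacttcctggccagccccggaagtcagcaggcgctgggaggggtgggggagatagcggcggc
Agpat3: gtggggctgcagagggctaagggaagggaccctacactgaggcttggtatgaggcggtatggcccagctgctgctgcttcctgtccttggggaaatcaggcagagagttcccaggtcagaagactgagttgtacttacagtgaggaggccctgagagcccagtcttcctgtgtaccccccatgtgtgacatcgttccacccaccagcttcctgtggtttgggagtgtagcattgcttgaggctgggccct
The Agpat1 sequence held 1 GC box, and those of Agpat3 and Agpat4 held none. GC content was 71.2% in Agpat1, 58.0% in Agpat3 and 55.6% in Agpat4, against a median of 51.2% over 33469 promoters of the same length, of which 30.5% held a GC box. The number of CpG pairs was 18 in Agpat1, 2 in Agpat3 and 11 in Agpat4, against a median of 5. Of the other members, Agpat2 held 6 GC boxes, Lpcat3 held 5, Lpcat2 held 2, Lpcat1 held 1 and Lpcat4 held none. These matches are a description of the printed window only.

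Some values of the tissue and the libraries are needed beside the comparisons. Markers of neurons and oligodendrocytes were present in all 9 samples, as labelled for spinal cord, and no marker of the 8 cell type lists was at 0 in any sample. In bulk tissue, fewer cells of a type and less RNA per cell cannot be told apart. The summed level of 11 astrocyte markers was 2434 to 2897 TPM in SNI, 961.4 to 1152 TPM in PLM and 1271 to 2852 TPM in JA, where JA replicate 3 was the lowest. That of 10 neuron markers was 4285 to 5332 TPM in SNI, 3723 to 4271 TPM in PLM and 2226 to 4242 TPM in JA. That of 8 oligodendrocyte markers was 45370 to 47660 TPM in SNI, 49190 to 50310 TPM in PLM and 48060 to 55500 TPM in JA. The summed level of 5 Schwann cell markers ran from 61.43 TPM in JA replicate 2 to 6322 TPM in JA replicate 3. It also varied within the other groups, from 419.1 to 3590 TPM in SNI and from 183.1 to 2646 TPM in PLM. The share of TPM taken by 13 mitochondrial protein genes was 23.65 to 26.09% in SNI, 31.27 to 32.79% in PLM and 25.32 to 32.82% in JA. TPM values have the same total in each sample, so more TPM in some genes leaves less for the others. The median log2(TPM + 1) of a sample was 3.47 to 3.53 in SNI, 3.18 to 3.30 in PLM and 3.30 to 3.46 in JA. JA replicate 2 had the highest mitochondrial share (32.82%) with a median of 3.37. JA replicate 3 had a lower share (29.29%) and a lower median (3.30). The part of the mitochondrial share in these medians was not tested. Because the medians differed, differences are given as deposited and, beside that, with each sample centred on its median.

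PLM against SNI asks how the cord of treated rats differed from that of injured rats given saline. As deposited, all 8 members tested lay below SNI, as did 13160 of the 15474 genes tested, and Agpat1, Agpat3 and Agpat5 passed the test across all genes, falling by 26.3%, 34.2% and 32.6% of the mean TPM. Agpat2 was under the mean of 1 TPM that the test required. After median-centring 5 of the 8 members lay below SNI, against 42.4% of all genes, and none passed. The share of genes called lower among all 15474 tested was 13.6% as deposited, against 3 of 8 members, and 0.685% after centring, against 0 of 8.

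Agpat3, which prefers polyunsaturated fatty acids and is placed in the endoplasmic reticulum and Golgi, had the largest difference of the members on the log2 scale with all samples, although Agpat1 differed by more TPM and Agpat5 was ahead (-0.60 against -0.58) without PLM replicate 2. It measured 52.50, 45.60 and 45.62 TPM in SNI replicates 1, 2 and 3, and 30.57, 31.32 and 32.63 TPM in PLM replicates 1, 2 and 3. Every SNI sample was above every PLM sample, and the spread within PLM was narrow. The log2 fold change of TPM + 1 was -0.59 (SE 0.08, adjusted p = 0.0116, limma), and -0.34 (adjusted p = 0.0851, limma) on median-centred values. Agpat5, which is linked to mitochondria, measured 30.19, 27.45 and 28.46 TPM in SNI and 17.83, 20.84 and 19.39 TPM in PLM. The groups were again fully separate. Its log2 fold change was -0.55 (SE 0.08, adjusted p = 0.0156, limma), and -0.30 (adjusted p = 0.111, limma) after centring. Agpat1, a widely expressed enzyme of the endoplasmic reticulum, measured 88.32, 78.85 and 84.91 TPM in SNI and 60.63, 61.00 and 64.27 TPM in PLM, again with no overlap. Its log2 fold change was -0.43 (SE 0.06, adjusted p = 0.0166, limma), and -0.18 (adjusted p = 0.208, limma) after centring.

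Agpat4, the most abundant member and one known to be enriched in brain, measured 173.82, 178.92 and 183.85 TPM in SNI and 161.63, 163.69 and 165.25 TPM in PLM. Every PLM sample was lower, but the difference of -0.13 on the log2 scale (SE 0.05) did not pass (adjusted p = 0.115, limma), and it was smaller in size than the median of -0.21 over all genes tested. After centring it was 0.12 (adjusted p = 0.38, limma), and all 3 PLM samples then exceeded the highest SNI sample. How many of all genes did the same was not counted. Agpat2, the enzyme whose loss causes lipodystrophy in people, measured 1.40, 0.51 and 0.90 TPM in SNI and 0.67, 0.40 and 1.15 TPM in PLM. These values overlapped. With no filter on low values the log2 fold change was -0.15 (adjusted p = 0.69, limma).

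Of the Lpcat members, Lpcat1 and Lpcat3 were lower in every PLM sample than in every SNI sample as deposited, and none of the 4 passed the test. Lpcat1, known for the saturated phosphatidylcholine of lung surfactant, measured 7.76, 6.74 and 5.83 TPM in SNI and 4.63, 4.47 and 5.16 TPM in PLM, a log2 difference of -0.43 (SE 0.12, adjusted p = 0.0559, limma). Lpcat3, which places arachidonic acid into phosphatidylcholine, measured 26.89, 28.97 and 26.56 TPM in SNI and 21.21, 22.47 and 24.84 TPM in PLM, a log2 difference of -0.26 (SE 0.08, adjusted p = 0.0728, limma). Centring brought the Lpcat1 and Lpcat3 differences to -0.18 and -0.01, and their groups then overlapped. Lpcat4 measured 31.79, 25.44 and 30.86 TPM in SNI and 23.67, 24.92 and 26.34 TPM in PLM, overlapping between groups, at -0.22 on the log2 scale (adjusted p = 0.158, limma). Lpcat2, the member that also makes platelet-activating factor in inflammatory cells, measured 4.33, 5.51 and 5.0 TPM in SNI and 4.32, 4.0 and 4.83 TPM in PLM, a difference of -0.14 on that scale (adjusted p = 0.385, limma). The Lpcat2 difference was -0.0739 without SNI replicate 2, -0.0898 without PLM replicate 2 and -0.22 without SNI replicate 1. After centring, the Lpcat4 and Lpcat2 differences were 0.03 and 0.11.

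Across the 8 tested members, 6 did not overlap between SNI and PLM and were lower as deposited, where 41.9% of all genes tested did the same. On centred values 3 members (Agpat1, Agpat3 and Agpat5) were lower without overlap, against 9.73% of all genes. The median log2 fold change of the members was -0.34 as deposited and -0.10 after centring, and that of all genes tested was -0.21 and 0.04. With the study's thresholds of an unadjusted p under 0.05 and a log2 fold change beyond 1, no member was called, and 1.42% of all genes were called lower. With 1 sample left out, the limma call of Agpat1 was lost without PLM replicate 1 (adjusted p = 0.0708), PLM replicate 2 (0.0727), SNI replicate 1 (0.0607) or SNI replicate 3 (0.0528). That of Agpat3 was lost without PLM replicate 1 (adjusted p = 0.0537, limma) or PLM replicate 2 (0.0567), and that of Agpat5 without PLM replicate 1 (adjusted p = 0.0564, limma) or SNI replicate 1 (0.0609). The astrocyte markers moved in the same direction in these samples, with 11 of 11 called lower as deposited (median log2 fold change -1.42) and 10 of 11 after centring (median -1.18). Summed neuron markers were also lower in every PLM sample than in every SNI sample, and summed oligodendrocyte markers higher, with no marker of either list called. The part of these cell types in the members' differences was not tested.

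**Figure D2:**
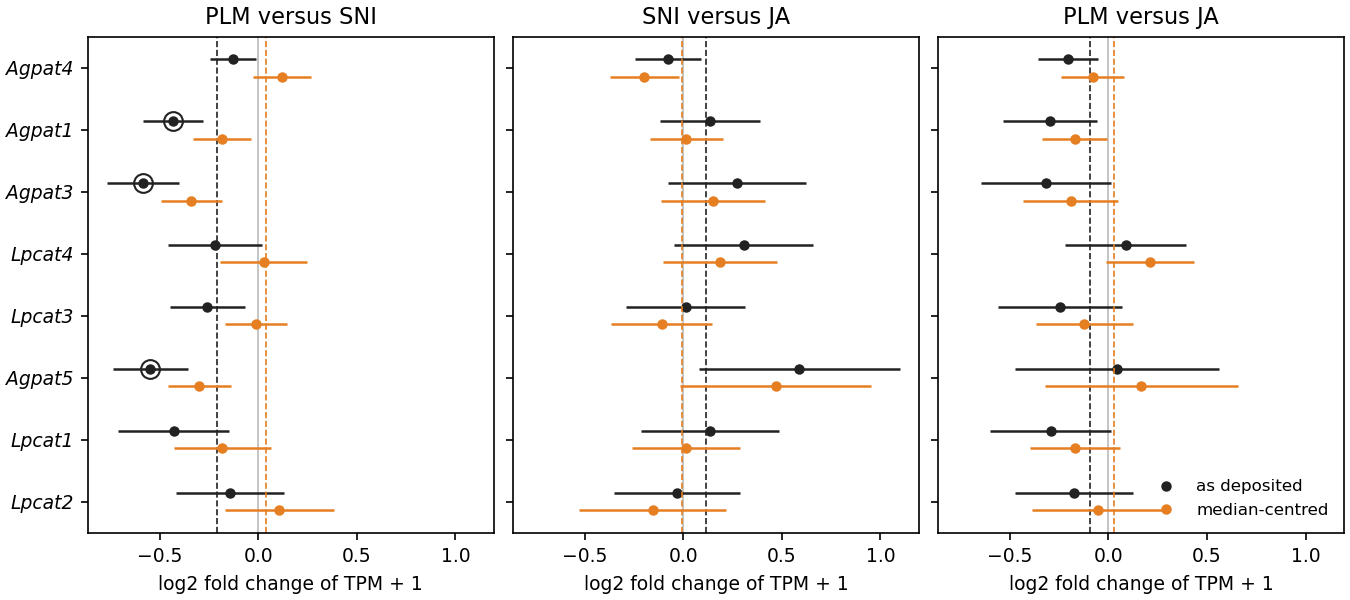
Log2 fold change of TPM + 1 for the 8 members tested in the 3 comparisons, as deposited and median-centred, with 95% confidence intervals from limma; dashed lines mark the median over all genes tested in the same setting and rings mark an adjusted p under 0.05. In PLM versus SNI, Agpat1, Agpat3 and Agpat5 are ringed as deposited, and no member is ringed after centring or in the other comparisons.

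SNI against JA asks how injured cord differed from sham-operated cord. No member passed the test, nor did any of the 15557 genes tested (0.0%), while 1 member, Agpat5, and 1104 genes had an unadjusted p under 0.05. Agpat5 measured 18.92, 25.75 and 13.41 TPM in JA, below each of the SNI values given above, although the JA samples differed widely among themselves. Its log2 fold change was 0.59 (SE 0.21, adjusted p = 0.614, limma), and 0.36 (SE 0.15, adjusted p = 0.836, limma) without JA replicate 3, the sample with the highest Schwann cell marker sum. Agpat4 measured 191.00, 190.96 and 184.03 TPM in JA, just above all 3 SNI samples, which gave -0.08 on the log2 scale (adjusted p = 0.68, limma) as deposited and -0.20 (unadjusted p = 0.0327, adjusted p = 0.889, limma) after centring. These 2 members were the ones that did not overlap between SNI and JA as deposited, where 13.8% of all genes did not overlap, and the Agpat5 groups overlapped after centring (log2 fold change 0.47, adjusted p = 0.889, limma). Lpcat4, with 28.42, 21.36 and 21.20 TPM in JA, stood at 0.31 on the log2 scale (adjusted p = 0.614, limma), and Agpat3, with 47.22, 40.09 and 32.46 TPM in JA, one of 0.27 (adjusted p = 0.614, limma). After centring these were 0.19 and 0.15 (adjusted p = 0.889 for both, limma). The Agpat3 value as deposited was 0.13 without JA replicate 3 and 0.40 without JA replicate 1. Agpat1, Lpcat1, Lpcat2 and Lpcat3 stood at 0.14, 0.14, -0.03 and 0.01 as deposited and at 0.0148, 0.0139, -0.15 and -0.11 after centring. Single samples moved these small values, with 0.073 to 0.23 for Agpat1, 0.034 to 0.23 for Lpcat1, -0.11 to 0.0441 for Lpcat2 and -0.12 to 0.0917 for Lpcat3 when 1 was left out. The lowest value of Agpat1 and Lpcat1 came without JA replicate 3, and their highest without JA replicate 1 and SNI replicate 3, respectively. As deposited, the median over all genes tested was 0.12.

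PLM against JA shares its PLM samples with the first comparison and its JA samples with the second, so the 3 comparisons are not independent. No member passed, and 3 of 15349 genes tested did (0.0195%), while Agpat1 and Agpat4 and 1809 genes had an unadjusted p under 0.05. Agpat4 was lower in PLM than in JA in every sample (log2 fold change -0.21, SE 0.06, adjusted p = 0.368, limma) as deposited, but after centring it was at -0.08 (adjusted p = 0.685, limma) and the groups overlapped. Agpat1 measured 86.83, 73.23 and 69.80 TPM in JA, above every PLM sample (log2 fold change -0.30, SE 0.10, adjusted p = 0.375, limma), and at -0.17 (adjusted p = 0.498, limma) after centring, still without overlap. As deposited, Agpat1 and Agpat4 were the members without overlap, against 17.7% of all genes tested. The share of all genes without overlap after centring was not counted for this comparison. Agpat5, the member with the largest SNI minus JA difference on the log2 scale, had a mean of 19.36 TPM in JA and 19.35 TPM in PLM, and a log2 fold change of 0.04 (95% confidence interval -0.48 to 0.56), which was 0.17 after centring. As deposited it was -0.18 without JA replicate 3, its lowest sample, 0.26 without JA replicate 2, 0.0971 without PLM replicate 1 and -0.0098 without PLM replicate 2. Lpcat4 was at 0.09 as deposited and at 0.21 (adjusted p = 0.508, limma) after centring, where the lowest PLM sample exceeded the highest JA sample. The Lpcat4 value as deposited was 0.22 without JA replicate 1, 0.0223 without JA replicate 2, 0.0171 without JA replicate 3 and 0.049 without PLM replicate 3. The other differences from JA, none of which passed, were -0.32 for Agpat3, -0.29 for Lpcat1, -0.17 for Lpcat2 and -0.25 for Lpcat3 as deposited, and -0.19, -0.17, -0.05 and -0.12 after centring. Without JA replicate 1, the Agpat3 difference was -0.19, and without JA replicate 3 the Lpcat2 difference was -0.0976 and the Lpcat3 difference -0.38. In JA, Lpcat1 measured 6.92, 6.21 and 5.12 TPM, Lpcat2 4.48, 5.03 and 5.75 TPM, and Lpcat3 29.16, 30.58 and 22.64 TPM. Agpat2 in JA measured 0.70, 1.3 and 0.60 TPM.

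Shares within the family do not move with a shift common to all genes, and are given as a description with no test. No rate of separation between groups was counted for shares of other genes. In TPM as deposited, 41.9% of all genes tested were lower without overlap in PLM versus SNI. In SNI versus JA and PLM versus JA, 13.8% and 17.7% did not overlap. Agpat4 held 46.2, 48.4 and 51.8% of the summed TPM of the 9 members in JA, 41.7, 45.0 and 44.6% in SNI, and 49.7, 49.1 and 48.1% in PLM. Its share in SNI was below both other groups without overlap, and JA and PLM overlapped. Agpat5 held 4.96 ± 1.41% of JA, 7.01 ± 0.195% of SNI and 5.79 ± 0.409% of PLM family transcripts (mean ± SD, n = 3), with SNI above both other groups in every sample. The Agpat1 share was 20.5% in SNI and 18.5% in PLM, and the Agpat3 share 11.7% and 9.43%, both lower in every PLM sample than in every SNI sample. Lpcat4 went from 6.09% in JA to 7.17% in SNI and 7.47% in PLM, with PLM above JA in every sample. The remaining members, Agpat2, Lpcat1, Lpcat2 and Lpcat3, overlapped between all groups in this share of the 9 members. As a share of the 4 Lpcat members alone, Lpcat1 was 8.0 to 8.6% in PLM and 9.36 to 10.0% in JA. Lpcat3 was then 39.4 to 40.6% in PLM and 41.4 to 48.4% in JA, while Lpcat2 still overlapped. Together the 9 members reached 387.7 ± 29.9 TPM in JA, 409.0 ± 9.85 TPM in SNI and 334.0 ± 9.38 TPM in PLM, a log2 ratio of PLM to SNI of -0.29 as deposited and -0.04 after centring.

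**Figure D3:**
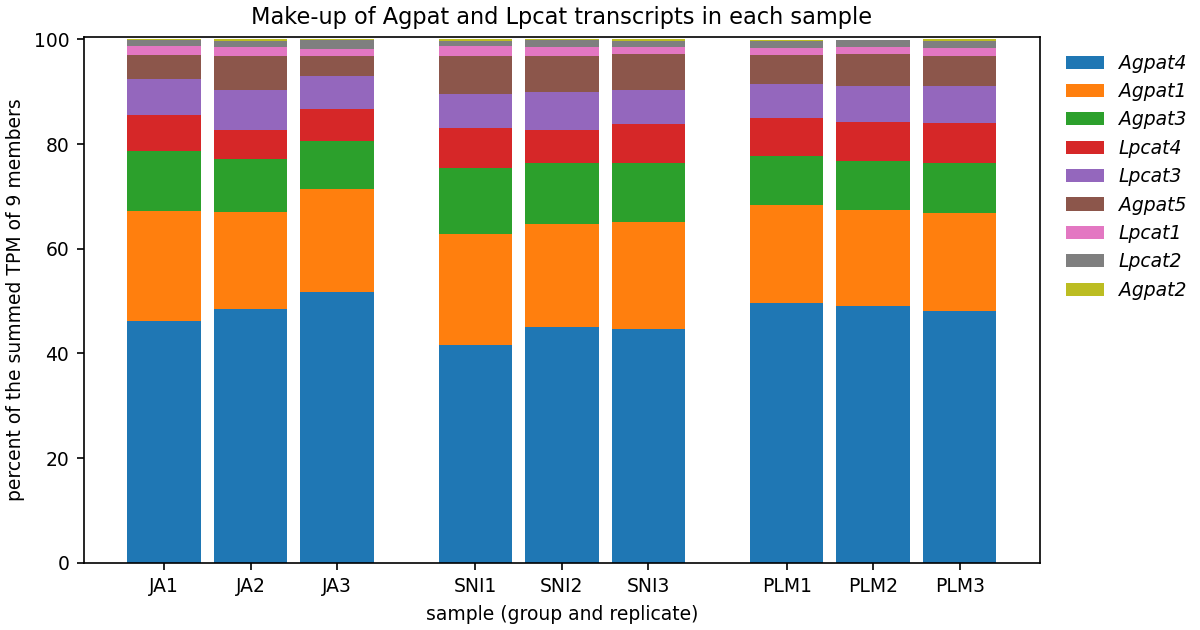
Percent of the summed TPM of the 9 members that each member held, as 1 stacked bar for each sample starting at 0, with samples in the order JA, SNI and PLM. The Agpat4 part is smallest in the 3 SNI samples, at 41.7 to 45.0%, and reaches 46.2 to 51.8% in JA and 48.1 to 49.7% in PLM.

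The neighbours of the members in phospholipid metabolism were taken from 5 lists of 37 genes. In PLM versus SNI, 12 of the 34 tested were called lower as deposited and 0 higher, where 13.6% of all genes tested were called lower, and the median log2 fold change was -0.29. After centring 3 were called lower, where 0.685% of all genes were. Leaving out 1 sample gave 4 to 9 called, with 4 without PLM replicate 1, PLM replicate 2 or SNI replicate 1, 6 without SNI replicate 3 and 7 without PLM replicate 3. The 3 called after centring were Pla2g7, Acsl6 and Plpp3. Pla2g7, the phospholipase that degrades platelet-activating factor, was 130.0 ± 10.0 TPM in SNI and 46.0 ± 5.32 TPM in PLM (log2 fold change -1.48, adjusted p = 0.00396, limma; -1.23 and 0.0263 after centring). Plpp3, which removes phosphate from phosphatidic and lysophosphatidic acid, was 46.9 ± 7.28 TPM in SNI and 18.4 ± 1.62 TPM in PLM (-1.30, adjusted p = 0.00557, limma; -1.05 and 0.0278 after centring). Acsl6, which activates polyunsaturated fatty acids for these acyltransferases, was 69.1 ± 7.13 TPM in SNI and 31.9 ± 1.72 TPM in PLM (-1.09, adjusted p = 0.00477, limma; -0.84 and 0.0263 after centring). The astrocyte markers were lower in the same samples, with a median log2 fold change of -1.42 as deposited and -1.18 after centring. Their part in the differences of the pathway genes was not tested.

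By role, 2 of 3 tested glycerol-3-phosphate acyltransferases, the enzymes of the step before Agpat, were called lower as deposited, to be read against the same 13.6% as the other lists. These were Gpam (16.9 to 10.7 TPM, log2 fold change -0.61, adjusted p = 0.0293, limma) and Gpat4 (27.2 to 21.8 TPM, -0.30, adjusted p = 0.0445, limma). Among 6 other lysophospholipid acyltransferases, 2 were called lower. Mboat2 was 20.2 ± 2.72 TPM in SNI and 10.0 ± 0.989 TPM in PLM, at -0.95 on the log2 scale (adjusted p = 0.0109, limma), and Lclat1, which remodels cardiolipin and phosphatidylinositol, went from 4.27 to 2.55 TPM (-0.58, adjusted p = 0.0416, limma). Of 7 phosphatidate phosphatases and CDP-diacylglycerol synthases, which use the product of Agpat, 2 were called, Plpp3 and Lpin1 (-0.54, adjusted p = 0.0279, limma). Of 13 phospholipases A and lysophospholipases, of which the first form lysophospholipids and the second break them down, 4 were called, among them Pla2g7, the lysophospholipase Pnpla7 (-0.61, adjusted p = 0.0163, limma) and Pla2g6 (-0.42, adjusted p = 0.034, limma). Of 5 long-chain acyl-CoA synthetases, 2 were called, Acsl6 and Acsl3 (106.0 to 72.2 TPM, -0.55, adjusted p = 0.015, limma). After centring the lists had 0, 0, 1, 1 and 1 called, in the order given here. The genes that then lost their call were at -0.36 (Gpam), -0.05 (Gpat4), -0.70 (Mboat2), -0.33 (Lclat1), -0.29 (Lpin1), -0.36 (Pnpla7), -0.17 (Pla2g6), -0.05 (Pla2g12a) and -0.30 (Acsl3) on the log2 scale, with adjusted p from 0.0764 for Mboat2 to 0.766 for Pla2g12a (limma). None of the pathway genes was called in SNI versus JA or PLM versus JA by limma, where 6 and 8 of the 35 tested had an unadjusted p under 0.05, beside 1104 of 15557 and 1809 of 15349 of all genes tested.

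**Figure D4:**
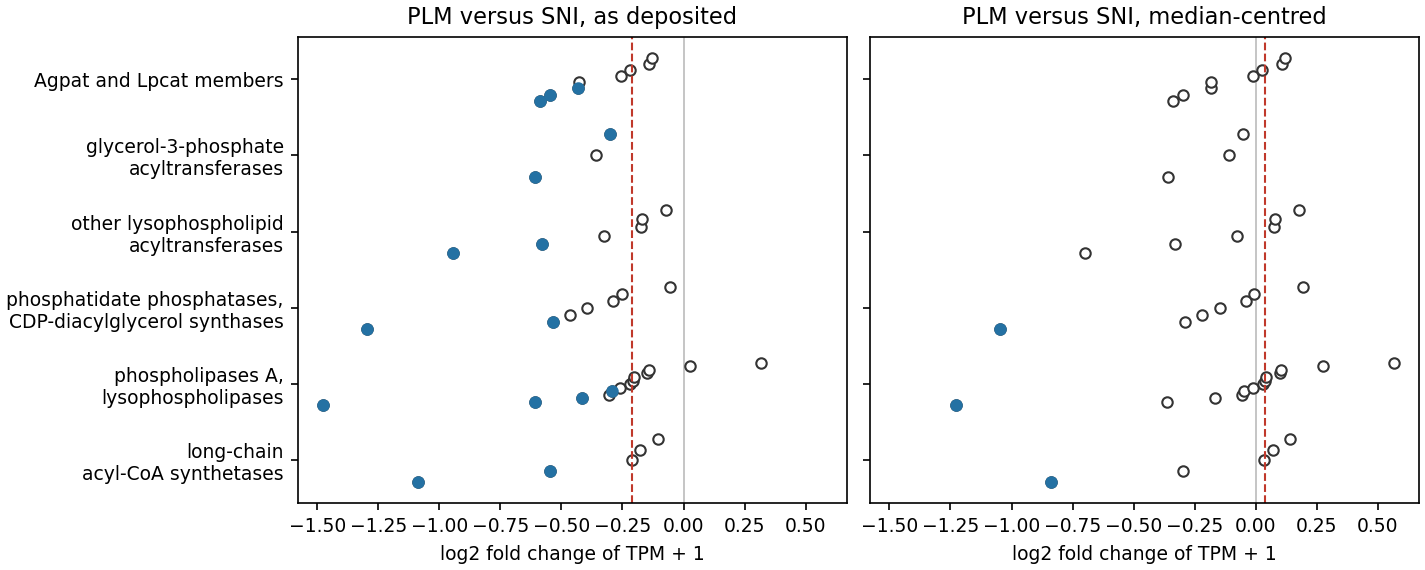
Log2 fold change of TPM + 1 in PLM versus SNI for the 8 members tested and the 34 tested genes of 5 pathway lists, 1 point a gene, as deposited (left) and median-centred (right); filled points had an adjusted p under 0.05 in limma and the dashed line is the median over all genes tested. The 12 filled pathway points on the left become 3 on the right, and the 3 filled member points become 0.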

How the data were processed

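RNA sequencing was done on 9 samples of rat spinal cord, 3 each in JA, SNI and PLM. The deposited values are TPM, made by the authors from reads trimmed with fastp 0.19.5 and, according to the submitters' processing notes and the methods, aligned with HISAT2 and assembled with StringTie. The processing notes name the build GRCh38.p13, which is a human assembly, although the gene identifiers are those of rat. Columns summed to between 999999.6 and 1000000.4, so sequencing depth is unknown and limits on low values cannot be given. Whether the counting used strand is not given in the sources used here, and Agpat1, Agpat2, Agpat4, Lpcat2 and Lpcat3 overlap another RefSeq gene.

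TPM values were taken as log2(TPM + 1), and a fold change on this scale understates that of low genes. Each pair of groups was fitted in limma 3.58.1 with a variance trend (R 4.3.3), on loci that averaged 1 TPM or more in the 6 samples, two-sided, with Benjamini-Hochberg adjustment over all loci tested and a threshold of 0.05. P-values test the difference between group means against the spread between rats within groups of 3. For each gene, limma draws that spread toward a trend over all loci tested. Centring subtracted the median of each sample over the loci tested. The fit was tested on simulated data. Alternatives were other scalings, a pseudocount of 0.1, other filters, all 9 samples in 1 fit, a replicate block, leaving out each sample, and the study's thresholds. All members are named, with up to 3 called genes a pathway list, each pathway gene that lost its call on centring and, for each member but Agpat2, the gene of the most similar profile. The members and lists were chosen with earlier results of these data known.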

Additional observations from a re-analysis of the deposited data

How the results depend on the processing

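The 3 members called in PLM versus SNI became 0 with median-centring, with quantile normalization, with the replicate block and with the study's thresholds, and 1 (Agpat3) with TPM rescaled without mitochondrial genes. They became 2 in the fit of all 9 samples, without Agpat5 (adjusted p = 0.102, limma), and 4 with 1 TPM required in every sample, with Lpcat1 added (adjusted p = 0.0478, limma). Leaving out 1 sample gave 0 to 3, with 0 without PLM replicate 1 and 1 without PLM replicate 2 or SNI replicate 1. The 12 pathway genes became 3, 3, 4 and 3 under centring, quantile normalization, the replicate block and the study's thresholds, 4 without mitochondrial genes, 6 in the fit of all 9 samples and 4 to 9 with a sample left out. Beside these counts, the share of all genes called lower was 13.6% as deposited, 0.685% after centring and 1.42% with the study's thresholds. It was not counted for the other settings, where a general loss of calls cannot be told from a change in these genes. Same-numbered samples did not deviate together more than others (r from -0.046 to 0.126 over 9 pairs, against -0.192 to 0.136 over 18 other pairs). A sample matched its own number best in 7 of 18 cases. No sign of pairing by replicate number was seen, but with 3 samples a group this check cannot exclude it. In PLM versus SNI, Agpat4 turned to 0.12, 0.0568 and 0.0191 under centring, quantile normalization and removal of mitochondrial genes, Lpcat2 to 0.11 and 0.0936 and Lpcat4 to 0.0274 and 0.0036 under the first 2 of these. In SNI versus JA, Lpcat3 turned to -0.11, -0.12 and -0.0771 under the same 3, and Agpat2 was -0.0020 without mitochondrial genes. With a sample left out, Lpcat2 ran from -0.11 to 0.0441 and Lpcat3 from -0.12 to 0.0917 in SNI versus JA, and Agpat5 from -0.18 to 0.26 in PLM versus JA. The log2 ratio of summed member TPM was -0.29, 0.08 and -0.22 as deposited in PLM versus SNI, SNI versus JA and PLM versus JA. It was -0.0425 (centred), -0.14 (without mitochondrial genes) and -0.43 (without Agpat4) in PLM versus SNI, -0.0438, -0.0139 and 0.21 in SNI versus JA (as deposited 0.0174 without JA replicate 3 and 0.13 without JA replicate 1), and -0.0862 (centred) in PLM versus JA. The cause of these changes was not tested.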

Other observations

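For each of the 8 members that averaged 1 TPM or more (Agpat2 did not), the gene with the most similar profile over the 9 samples, on median-centred values, was sought among 13945 named genes. Agpat4 was closest to Ehbp1l1 (Pearson r = 0.98), Agpat1 to Ehd3 (0.96), Agpat3 to Pygb (0.98) and Agpat5 to AABR07062583.1 (0.93). Lpcat1 was closest to Tanc1 (0.98), Lpcat2 to Cd9 (0.97), Lpcat3 to Ankfy1 (0.95) and Lpcat4 to Enpp5 (0.98). Each is the highest of many correlations over 9 samples that share group and tissue make-up, and is given as a description.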
